A study of Sus scrofa with 12 samples.

Results

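The genes described here belong to the transforming growth factor β (TGFB), bone morphogenetic protein (BMP) and activin pathway, measured in piglets of 2 weeks of age in the oxyntic mucosa, the part of the stomach lining that secretes acid. They were chosen by their names, as every measured gene whose symbol starts with TGFB, SMAD, BMP, ACVR, INHA, INHB, GDF, LTBP, GREM or FST, or is NOG or CHRD, and 49 of the 10912 genes measured met this rule. By role they were 5 TGFB and activin ligands, 15 BMP and GDF ligands, 13 receptors, 7 SMADs, 1 latent binding protein, 4 antagonists and 4 other genes that share a prefix. INHA, INHBB, SMAD3, CHRD, GDF15 and the other LTBP genes were not analysed here. Features that carry symbols of several genes, among them the 1 of SMAD3 and SMAD2, were left out.

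Oxyntic mucosa of 12 piglets was analysed, with 1 array per piglet. The 6 CA piglets were given diluted sow feces on days 3 to 4 of age (complex association), and the 6 SA piglets a placebo inoculant on the same days (simple association). All 12 were a (Great York × Pietrain) × 'Dalland' cross, were delivered by cesarean and raised artificially, and had a simple starter microbiota of Lactobacillus amylovorus, Clostridium glycolicum and Parabacteroides spp. on days 1 to 3. The question was which genes of the mucosa differ between piglets of the complex and of the simple starter microbiota.

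Ligands of this family bind pairs of type I and type II receptors, which are kinases, and these phosphorylate SMAD proteins that enter the nucleus. TGFB and activin act through SMAD2 and SMAD3, BMPs act through SMAD1, SMAD5 and SMAD9, and SMAD4 is the partner of each of them. SMAD6 and SMAD7 are induced by the pathway and inhibit it, and secreted proteins such as follistatin (FST), noggin (NOG) and gremlin (GREM1) capture ligands before they reach a receptor. In the mouse stomach, BMPs made by the mesenchyme are known to act on the differentiation of the gland epithelium, including its parietal cells.

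The values are array intensities, given here as log2, so that a difference of 1 is a doubling. They show how a gene differs between piglets, and not which of 2 genes is the more abundant. The median intensity of the arrays lay between 56.2 and 57.6 in the CA piglets and between 55.6 and 57.4 in the SA piglets. All 12 measured markers of the oxyntic mucosa, such as ATP4A and PGA5, lay above the median feature of the array, while of the 6 markers of antrum or intestine PDX1, CDX1, CDX2 and FABP2 lay below it and GAST and VIL1 above it. The array of CA piglet 4 was the most extreme one on the main axis of variation over all genes and had the lowest weight (0.267) when arrays were weighted. Because the tissue is a mixture of cells, fewer cells of a type and less RNA per cell cannot be told apart.

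By limma, FST and SMAD7 were the 2 genes of the pathway with the smallest unadjusted p between the CA and the SA piglets. BMPER and INHBA followed, and none of them passed the test over all genes. By the exact permutation test FST (0.00866) was followed by INHBA (0.0108), SMAD7 (0.0346) and BMPER (0.0714). FST was lower in the CA piglets (log2 fold change -0.21), and SMAD7 (0.34), BMPER (0.27) and INHBA (0.12) were higher. From limma, 0 of the 49 genes had an adjusted p under 0.05, as had 0 of all genes (0%), and each of the 49 had an adjusted p of 0.999. At an unadjusted p under 0.05 there were 4 of the 49 genes, or 8.16%, beside 3.28% of all genes. Of these, 3 were higher in CA, beside 2.06% of all genes, and 1 was lower in CA, beside 1.22% of all genes. In 0 of the 49 genes did the CA and SA piglets separate without overlap, which they did in 0.128% of all genes.

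By sign alone, 26 of the 49 genes were higher in the CA piglets and 23 lower, near the 52.7% of all genes that were higher. The median log2 fold change of the 49 genes was 0.01, as was that of all genes. The difference was smaller than 0.1 in 34 of the 49 genes (69.4%), beside 71.9% of all genes. With each array centred on its median feature, 21 of the 49 genes were higher (42.9%), beside 44.3% of all genes. The spread between piglets of a group had a median SD of 0.19 over the 49 genes and of 0.16 over all genes.

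**Figure D1:**
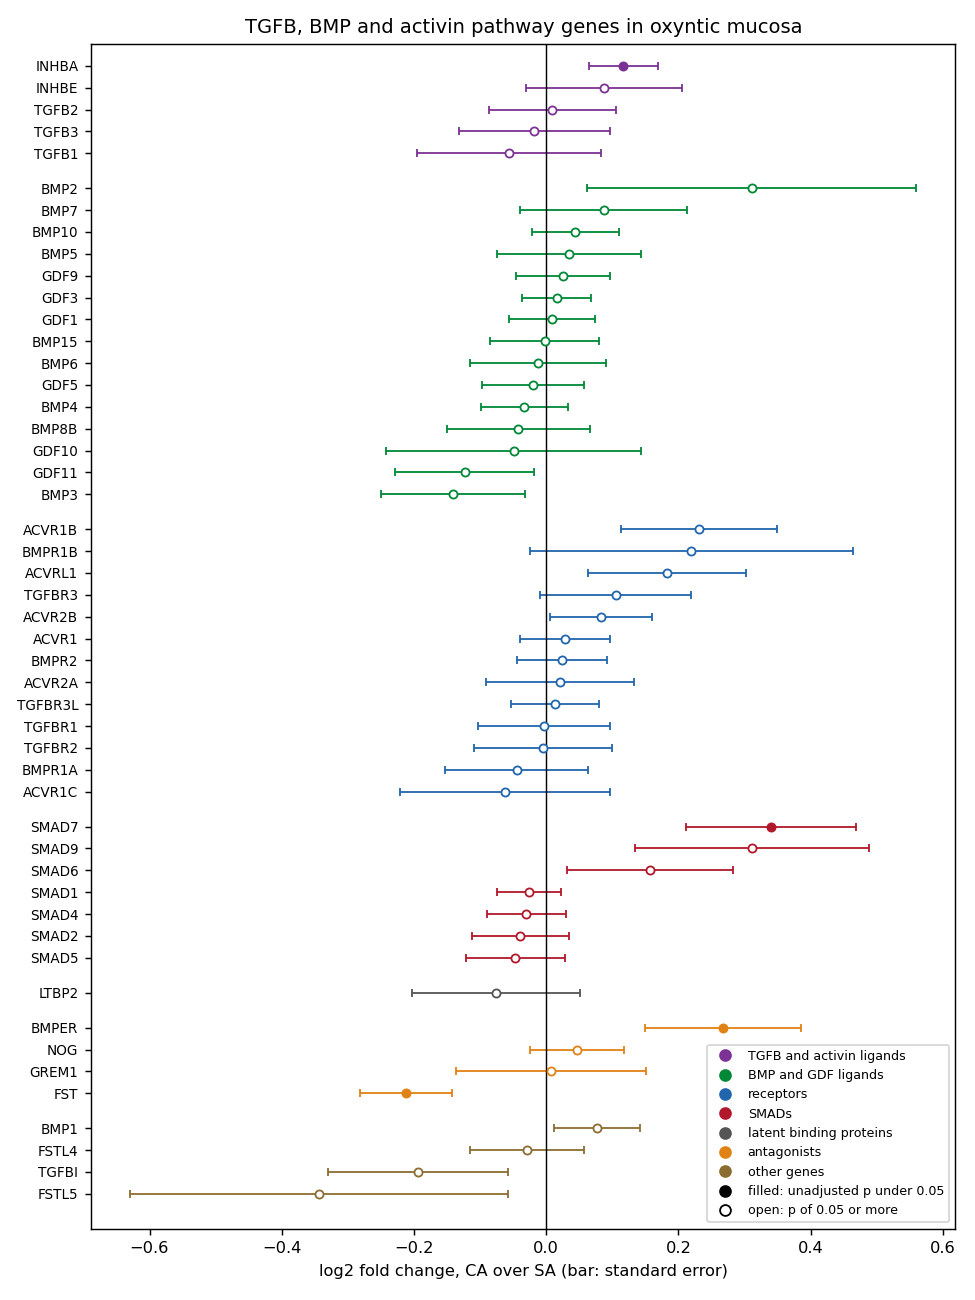
Log2 fold change of each of the 49 genes in CA over SA piglets (points, with the standard error from limma as bars), grouped by role in separate colors. The 4 filled points, INHBA, SMAD7, BMPER and FST, had an unadjusted p under 0.05, and most other genes lay within 0.1 of 0.

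Among the inhibitors inside the cell, SMAD7, which blocks the activated receptors and is itself induced by TGFB, was at a log2 intensity of 7.33 in the lowest CA piglet, 7.72 at the median and 8.11 in the highest. In the SA piglets it was at 7.02, 7.35 and 7.64. Thus 4 of the 6 CA piglets lay above every SA piglet, and the lowest CA piglet, number 1, lay beside the middle of the SA group. The means were 7.70 ± 0.26 in CA and 7.36 ± 0.23 in SA (SD, n = 6 each), and the log2 fold change was 0.34 (standard error 0.13, 95% interval 0.06 to 0.62), a 1.27-fold difference. Its unadjusted p was 0.0200 from limma and 0.0346 from the two-sided exact permutation test over all splits of the piglets into groups of 6. Without CA piglet 4, which had the highest value, the log2 fold change was 0.26 with an unadjusted limma p of 0.0459, and without SA piglet 11, which had the lowest, it was 0.27 with one of 0.0494.

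SMAD6, the other inhibitory SMAD, acts mainly on the BMP branch. Its log2 fold change was 0.16 (standard error 0.13), in the direction of SMAD7 and with an unadjusted p of 0.233 from limma. Among piglets, SMAD6 and SMAD7 moved closely together, with a Pearson's r of 0.923 over 12 piglets (permutation p = 5e-05, adjusted p = 0.00035 over the 7 pairs compared). Spearman's rho was 0.888 (permutation p = 0.00021, adjusted p = 0.00147). The relation held within each group, with r of 0.988 among the 6 CA piglets and 0.975 among the 6 SA piglets, and without the 2 piglets farthest from the median of SMAD7 (0.851). CA piglet 4 had the highest level of each gene (8.11 for SMAD7, 8.59 for SMAD6) and SA piglet 11 the lowest (7.02 and 7.70). At a like level of SMAD7 the CA piglets mostly lay at lower SMAD6 than the SA piglets in the plot of the pair, and this offset was not tested.

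BAMBI, a receptor-like membrane protein without a kinase that also dampens the pathway, was compared with SMAD7 as well. Pearson's r was 0.703 over 12 piglets (permutation p = 0.0107, adjusted p = 0.0373 over the 7 pairs), and Spearman's rho was 0.692 (permutation p = 0.0156, adjusted p = 0.0547). Within groups r was 0.701 in CA and 0.753 in SA. It was weaker, at 0.460, without CA piglet 4 and SA piglet 11, the 2 farthest from the median of SMAD7. Leaving them out narrows the range of SMAD7, which by itself can lower r.

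**Figure D2:**
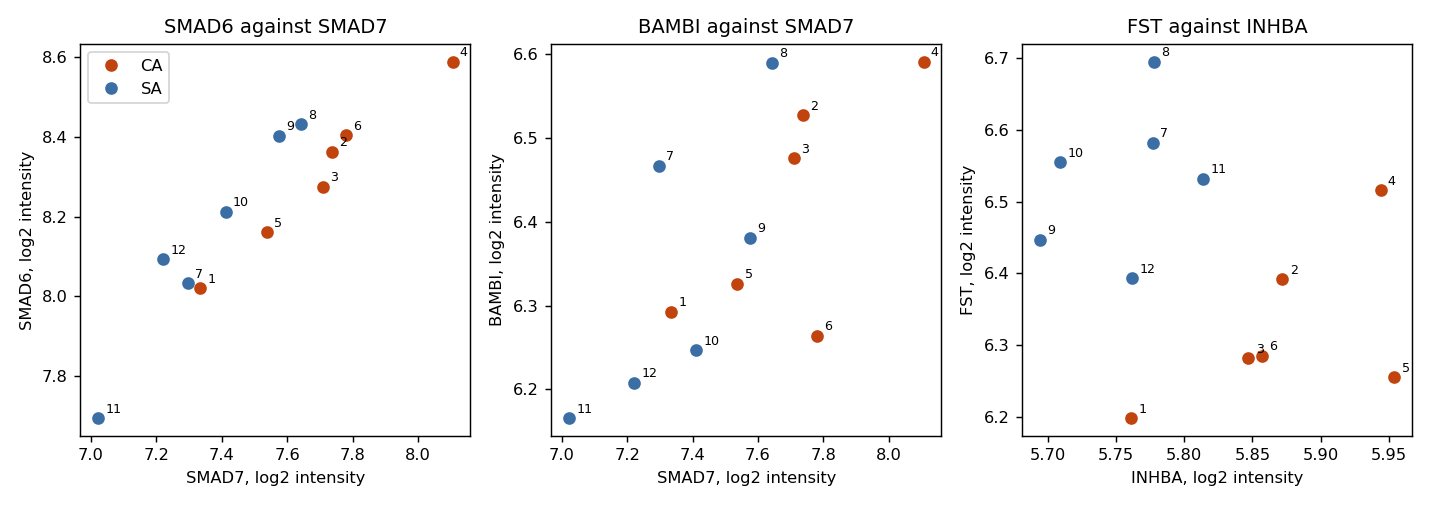
Log2 intensity of SMAD6 and of BAMBI against SMAD7, and of FST against INHBA, with 1 point per piglet labelled by its number, CA and SA in separate colors. SMAD6 follows SMAD7 in each group, with CA piglet 4 at the top and SA piglet 11 at the bottom, and in the plot of FST against INHBA most CA piglets lie to the lower right of the SA piglets.

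Of the SMADs that carry the signal, all but SMAD9 had small differences. SMAD1 had a log2 fold change of -0.03 (95% interval -0.13 to 0.08) and SMAD4 one of -0.03 (-0.16 to 0.10). SMAD2 was at -0.04 (-0.20 to 0.12), and SMAD5 at -0.05 (-0.21 to 0.11). CA piglet 4 stood alone at the low end of SMAD2 (8.79), where the other CA piglets lay at 9.12 or more, and its part in that difference was not tested. SMAD9, a BMP-activated SMAD, differed more and varied more among piglets. It was at 6.18, 6.65 and 7.04 in the lowest, median and highest CA piglet, and at 5.96, 6.21 and 7.06 in the SA piglets. The log2 fold change was 0.31 (standard error 0.18), with an unadjusted p of 0.156 from the exact permutation test. SA piglet 9, at 7.06, stood alone above the other SA piglets, which reached 6.31, and without it the log2 fold change was 0.46 with an unadjusted limma p of 0.0033. It was 0.23 without CA piglet 6 (unadjusted limma p of 0.220) and 0.24 without SA piglet 10 (0.206), and the p was under 0.05 in 2 of the 12 cases with 1 piglet left out. SA piglet 9 also had the highest mean of the oxyntic mucosa markers (10.93) and the lowest of the smooth muscle markers (9.72), and their part in its SMAD9 level was not tested.

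Among the secreted antagonists, FST, which binds activin and keeps it from its receptors, had the smallest p of the 49 genes. Its log2 intensity was 6.20, 6.28 and 6.52 in the lowest, median and highest CA piglet, against 6.39, 6.54 and 6.70 in the SA piglets. Of the 6 CA piglets, 5 lay below every SA piglet, and the exception was CA piglet 4. The highest of these 5, CA piglet 2 (6.392), was nearly level with the lowest SA piglet, number 12 (6.393). The means were 6.32 ± 0.11 in CA and 6.53 ± 0.11 in SA (SD, n = 6 each). The log2 fold change was -0.21 (standard error 0.07, 95% interval -0.36 to -0.06), with an unadjusted p of 0.00894 from limma and 0.00866 from the exact permutation test. With any 1 of the 12 piglets left out it lay between -0.25 and -0.18, and the unadjusted limma p stayed under 0.05 in each of the 12 cases.

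INHBA, the subunit of activin A, which FST captures, was on the other side. It was at 5.76, 5.86 and 5.95 in the lowest, median and highest CA piglet, against 5.69, 5.77 and 5.81 in the SA piglets. Of the CA piglets, 5 lay above every SA piglet, although the whole range over the 12 piglets was narrow and the gene was slightly dimmer than the median feature. The log2 fold change was 0.12 (standard error 0.05), a 1.08-fold difference, with an unadjusted p of 0.0427 from limma and 0.0108 from the exact permutation test. The unadjusted limma p stayed under 0.05 in 2 of the 12 cases with 1 piglet left out, those without CA piglet 1 or SA piglet 11. Over the 12 piglets INHBA and FST had an r of -0.303 (permutation p = 0.336, adjusted p = 0.589) and a rho of -0.287 (permutation p = 0.367, adjusted p = 0.514). Within groups the sign was the other one, with r of 0.589 in CA and 0.334 in SA.

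BMPER, a secreted protein that binds BMPs and is known from endothelial cells, was at 6.23, 6.61 and 6.92 in the lowest, median and highest CA piglet, against 6.10, 6.29 and 6.55 in the SA piglets. The log2 fold change was 0.27 (standard error 0.12), a 1.20-fold difference, with an unadjusted p of 0.0412 from limma and 0.0714 from the exact permutation test. The groups overlapped, with 3 CA piglets above every SA piglet. The unadjusted limma p stayed under 0.05 in 4 of the 12 cases with 1 piglet left out and was highest (0.101, with a log2 fold change of 0.20) without CA piglet 6. The 5 measured markers of endothelium were higher in CA as well, with a mean per piglet of 8.07 to 8.44 in CA and 7.97 to 8.17 in SA, and 0 of them had an unadjusted p under 0.05; their part in the difference of BMPER was not tested. The BMP antagonists NOG, at 0.05 (standard error 0.07), and GREM1, at 0.01 (standard error 0.14), differed by less than the spread between piglets. NOG was dimmer than the median feature. BMP4, a BMP of the gut mesenchyme, was set against GREM1 and had an r of 0.247 (permutation p = 0.437, adjusted p = 0.597) and a rho of -0.03 (permutation p = 0.939, adjusted p = 0.956). Within groups r was 0.460 in CA and -0.08 in SA, and it turned to -0.286 without CA piglet 2 and SA piglet 7.

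**Figure D3:**
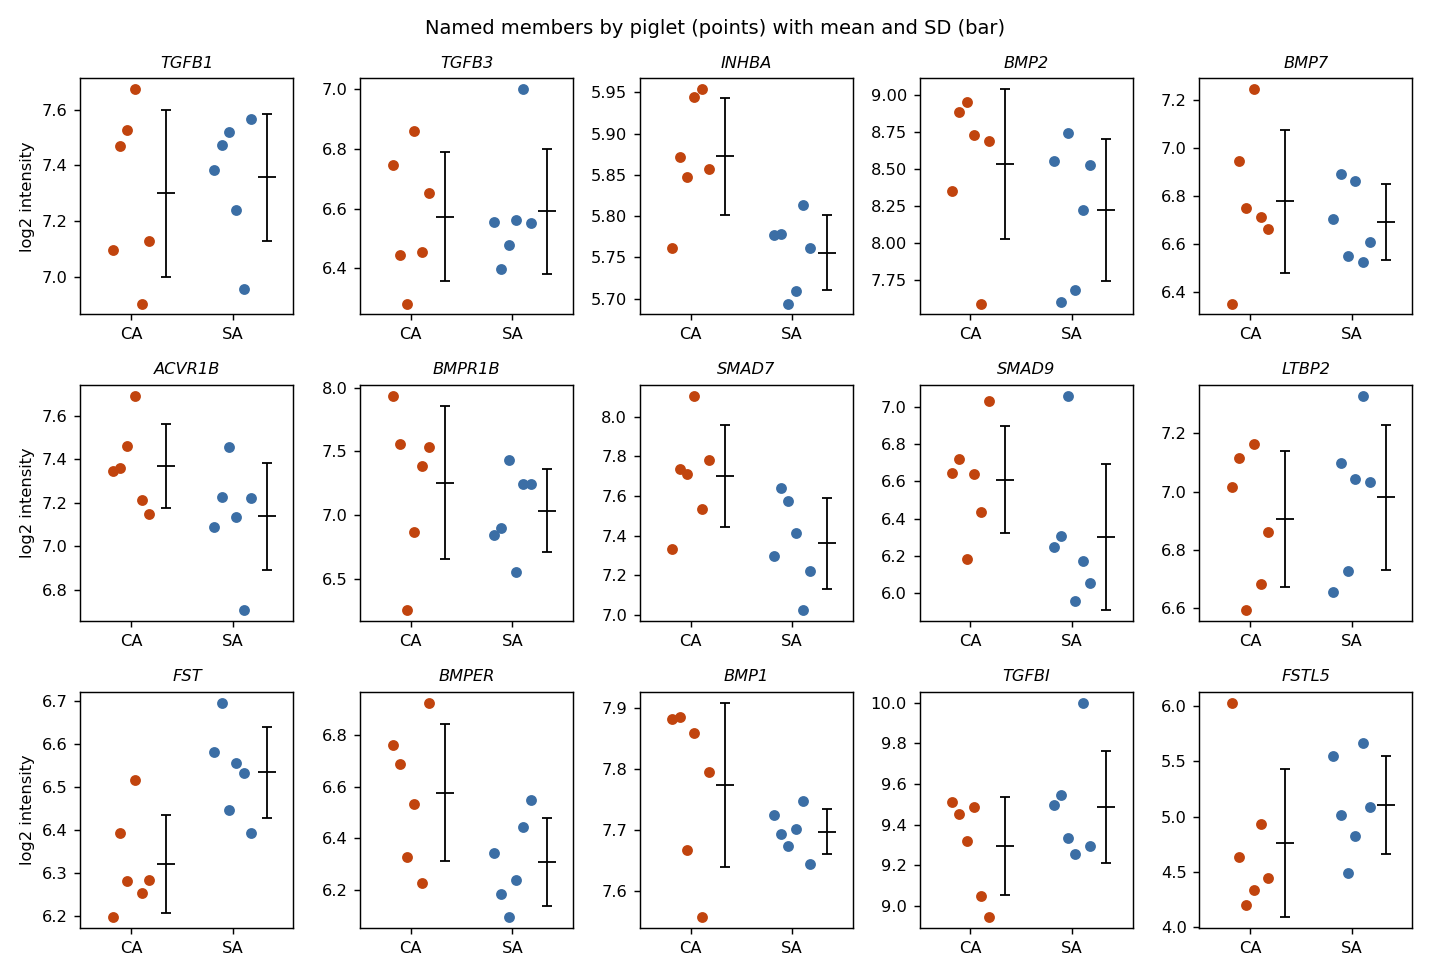
Log2 intensity of 15 genes in each CA piglet (left points) and SA piglet (right points), with mean and SD at the side of each group. FST lies lower and SMAD7 and INHBA lie higher in most CA piglets, while BMP2, BMPR1B and FSTL5 spread widely within each group.

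The levels of the TGFB ligands themselves overlapped widely between the groups. TGFB1, the isoform made by leukocytes and stromal cells, was at 6.90, 7.30 and 7.67 in the lowest, median and highest CA piglet, against 6.96, 7.43 and 7.57 in the SA piglets. Its log2 fold change was -0.06 (95% interval -0.36 to 0.24). TGFB3 was at 6.28, 6.55 and 6.86 in CA, against 6.40, 6.55 and 7.00 in SA, with a log2 fold change of -0.02 (-0.26 to 0.23). For TGFB2 the value was 0.01 (-0.20 to 0.22), and for INHBE, the subunit of activin E known from liver, 0.09 (-0.17 to 0.34). TGFB2 and INHBE were dimmer than the median feature. The signs of TGFB1 and TGFB3 turned with single piglets left out, to 0.02 for TGFB1 without CA piglet 5 and to 0.06 for TGFB3 without SA piglet 11.

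TGFBI, a matrix protein that TGFB induces, was at 8.94, 9.39 and 9.51 in the lowest, median and highest CA piglet, against 9.26, 9.41 and 10.00 in the SA piglets. It differed by -0.19 on the log2 scale (standard error 0.14), with an exact permutation p of 0.223, and without SA piglet 11, the highest, it was -0.09. SA piglet 11 also had the highest level of TGFB3 (7.00) and the highest mean of the 4 measured smooth muscle markers (11.28, where the other SA piglets reached 10.69 and the CA piglets 11.04). The part of muscle in these values was not tested. No relation of TGFB1 and TGFBI passed the test over the 12 piglets (r = 0.02, permutation p = 0.949, adjusted p = 0.949; rho = 0.02, permutation p = 0.956, adjusted p = 0.956), with r of 0.604 in CA and -0.755 in SA and of 0.377 without CA piglet 5 and SA piglet 11. For SMAD7 and TGFB1 r was 0.479 (permutation p = 0.115, adjusted p = 0.269) and rho 0.371 (permutation p = 0.234, adjusted p = 0.514). It was 0.738 within CA and 0.635 within SA, but 0.02 without CA piglet 4 and SA piglet 11. Leaving out both also narrows the range of SMAD7. Without CA piglet 4 alone r was 0.303, and without SA piglet 11 alone it was 0.307.

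Of the 15 BMP and GDF ligands, 7 were higher in CA and 8 lower, beside 52.7% of all genes that were higher. An unadjusted p under 0.05 was found for 0 of them, beside 3.28% of all genes, a share at which fewer than 1 of 15 genes would be called. BMP2 varied most among the ligands, at 7.59, 8.71 and 8.95 in the lowest, median and highest CA piglet, against 7.60, 8.37 and 8.75 in the SA piglets. Its levels were low in CA piglet 5 and in SA piglets 8 and 10 (7.68 in the last). The log2 fold change was 0.31 (standard error 0.25), with an unadjusted p of 0.233 from limma and 0.279 from the exact permutation test. It was 0.50 without CA piglet 5 and 0.19 without SA piglet 8. A further feature of BMP2 on the array gave 0.14 (standard error 0.14). Nor did a relation of BMP2 and SMAD6 pass (r = 0.212, permutation p = 0.512, adjusted p = 0.597; rho = 0.329, permutation p = 0.296, adjusted p = 0.514), with r of 0.529 in CA, -0.201 in SA and 0.481 without CA piglet 5 and SA piglet 8.

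BMP7, a ligand known from epithelia, was at 6.35, 6.73 and 7.24 in the lowest, median and highest CA piglet, against 6.52, 6.65 and 6.89 in the SA piglets, with a log2 fold change of 0.09 (standard error 0.13). Without CA piglet 4 the difference was -0.0063. BMP4 was at -0.03 (95% interval -0.18 to 0.11) and was among the ligands with the narrowest spread, with an SD of 0.10 over the 12 piglets. BMP3, an atypical member that opposes other BMPs, was at -0.14 (standard error 0.11), and GDF11 at -0.12 (standard error 0.11), which made them the 2 lowest of these ligands. BMP10, known from the heart, and BMP15, known from the oocyte, were dimmer than the median feature, as were 9 of the 15 ligands in all. BMP5, BMP8B, BMP10, BMP15, GDF1, GDF3, GDF5, GDF9 and GDF10 had log2 fold changes from -0.05 (GDF10) to 0.04 (BMP10). The 3 features of BMP6 gave -0.01, 0.23 and 0.09 (standard errors 0.10, 0.16 and 0.12). The 2 features of GDF5 held the same values in all 12 arrays and count as 1 measurement.

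Of the 13 receptors, 9 were higher in CA and 4 lower, beside the 52.7% of all genes that were higher. An unadjusted p under 0.05 was found for 0 of the 13, beside 3.28% of all genes, at which fewer than 1 of them would be called. ACVR1B, the type I receptor of activin, was at 7.15, 7.35 and 7.69 in the lowest, median and highest CA piglet, against 6.70, 7.18 and 7.45 in the SA piglets. Its log2 fold change was 0.23 (standard error 0.12), with an unadjusted p of 0.0705 from limma and 0.0952 from the exact permutation test. As for SMAD7 and SMAD6, CA piglet 4 was the highest and SA piglet 11 the lowest, and without SA piglet 11 the difference was 0.14. BMPR1B, a type I receptor of BMPs, was at 6.25, 7.46 and 7.94 in CA, against 6.55, 7.07 and 7.43 in SA, with a log2 fold change of 0.22 (standard error 0.24). CA piglets spread more than SA piglets in this gene (SD 0.60 and 0.33, n = 6 each), and the difference was 0.42 without CA piglet 3 and 0.08 without CA piglet 1. Its further feature gave 0.07 (standard error 0.11).

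ACVRL1, the type I receptor of endothelial cells, was at 0.18 (standard error 0.12), and TGFBR3, the co-receptor betaglycan, at 0.11 (standard error 0.11). The kinase receptors TGFBR1 and TGFBR2 were at -0.0036 (95% interval -0.22 to 0.21) and -0.0047 (-0.23 to 0.22). BMPR2 was at 0.02 (-0.12 to 0.17), BMPR1A at -0.04 (-0.28 to 0.19) and ACVR1 at 0.03 (-0.12 to 0.18). The activin receptors ACVR2A and ACVR2B, which are of type II, were at 0.02 (standard error 0.11) and 0.08 (standard error 0.08), while ACVR1C was at -0.06 (standard error 0.16) and TGFBR3L at 0.01 (standard error 0.07). ACVR2B and ACVR1C were dimmer than the median feature. CA piglet 4 had the lowest level of all piglets in TGFBR1 (7.42), BMPR1A (9.40) and ACVR2A (7.24). The other CA piglets lay at 7.85 or more, 9.935 or more and 7.71 or more in these genes. The part of CA piglet 4 in the differences of these receptors, and in the split of receptors by sign, was not tested. The intervals of the receptors leave room for differences of at least 0.1 on the log2 scale in either direction for TGFBR1, TGFBR2, BMPR1A, BMPR2 and ACVR1.

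The remaining genes were those caught by a prefix that are neither ligand, receptor, SMAD nor antagonist, of which TGFBI was described above, and the latent binding protein LTBP2. FSTL5, a secreted protein named for its likeness to follistatin, had the widest spread of the 49 genes, with an SD of 0.57 over the 12 piglets. It was at 4.20, 4.54 and 6.03 in the lowest, median and highest CA piglet, against 4.49, 5.05 and 5.67 in the SA piglets, on a feature whose mean was below the median one. The log2 fold change was -0.34 (standard error 0.29), and it was -0.60 without CA piglet 1. The highest FSTL5 of each group was in CA piglet 1 and SA piglet 11, which also had the highest smooth muscle marker means of their groups (11.04 and 11.28), and this was not tested. BMP1, a metalloprotease that cleaves procollagens and the BMP antagonist chordin and is no ligand, was at 7.56, 7.83 and 7.88 in CA, against 7.64, 7.70 and 7.75 in SA, with a log2 fold change of 0.08 (standard error 0.06). LTBP2, a microfibril protein of the latent TGFB binding family, was at 6.59, 6.94 and 7.16 in CA, against 6.66, 7.04 and 7.33 in SA, with a log2 fold change of -0.08 (standard error 0.13). FSTL4 was at -0.03 (standard error 0.09), on a feature dimmer than the median one.

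**Figure D4:**
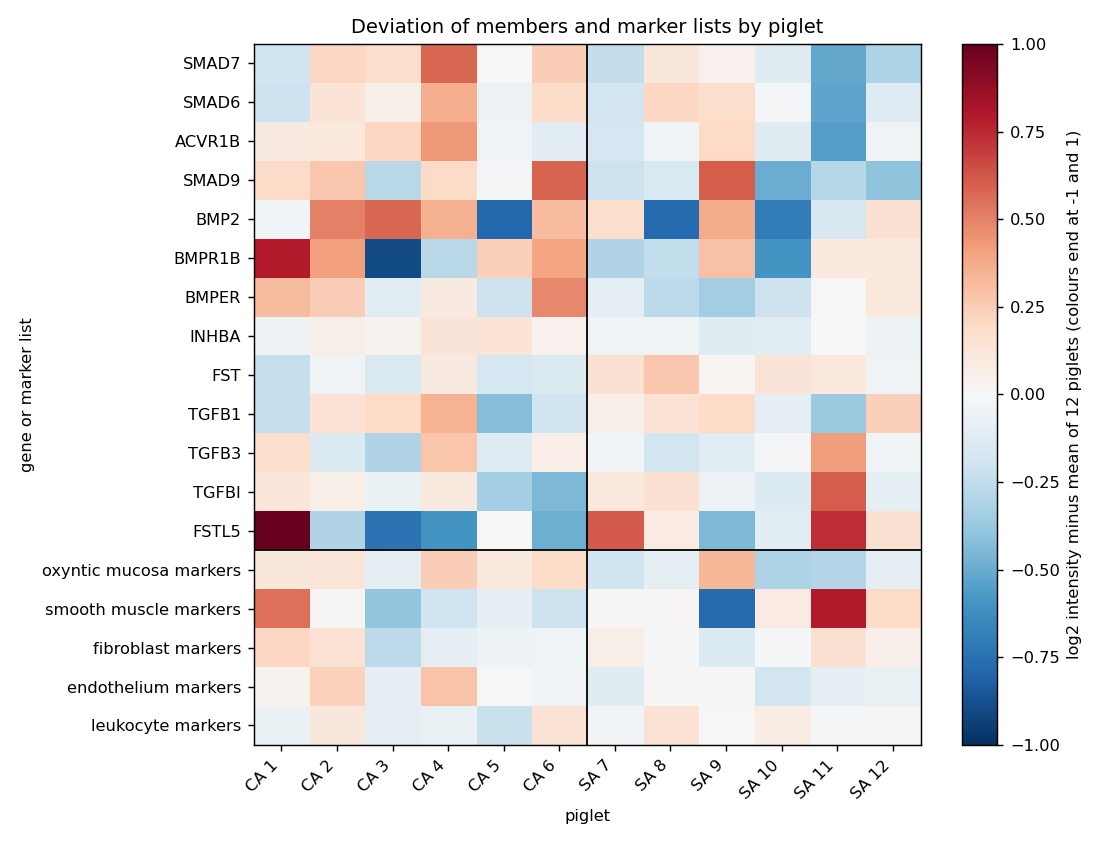
Deviation of 13 of these genes and of 5 marker lists from the mean of the 12 piglets, on the log2 scale, with CA piglets left and SA piglets right of the vertical line. CA piglet 4 is high and SA piglet 11 low for SMAD7, SMAD6 and ACVR1B, and CA piglet 1 and SA piglet 11 are high for FSTL5 and the smooth muscle markers.

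Further genes of the pathway that the naming rule leaves out were taken from a list of 60 regulators and targets, of which 39 were measured. Of these, 25 were higher in the CA piglets (64.1%) and 14 lower, beside 52.7% of all genes that were higher. Their median log2 fold change was 0.03, and 0 had an unadjusted p under 0.05 from limma, beside 3.28% of all genes. CDKN2B, a cell cycle inhibitor induced by TGFB, was at 0.34 (standard error 0.21). PMEPA1, which TGFB induces and which inhibits it, was at 0.23 (standard error 0.15), and FURIN, the protease that cleaves TGFB precursors, at 0.18 (standard error 0.12). PMEPA1 too was highest in CA piglet 4 (8.90) and lowest in SA piglet 11 (7.79). Of the ID genes, which are targets of BMPs, ID1 was at -0.20 (standard error 0.16), ID2 at 0.10 (standard error 0.09) and ID4 at 0.13 (standard error 0.11). BGN, a matrix proteoglycan that binds TGFB, was at -0.13 (standard error 0.09). These 7 genes were picked out of the 39 after their values were seen. Among the others, CTGF was at 0.08 (standard error 0.23), THBS1 at -0.02 (standard error 0.12) and SOSTDC1 at -0.24 (standard error 0.35).

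Of the marker lists, 11 of 12 measured genes of the oxyntic mucosa were higher in the CA piglets, with a mean per piglet of 10.50 to 10.85 in CA and 10.29 to 10.93 in SA. The means of the list were 10.71 ± 0.12 in CA and 10.49 ± 0.23 in SA (SD, n = 6 each), a difference of 0.22, and the SA piglets other than number 9 reached 10.51 at most. In limma 3 of the 12 passed an unadjusted p of 0.05, beside 3.28% of all genes, and these were genes of the acid-secreting parietal cell. KCNE2, a subunit of a potassium channel, was at 0.83 (unadjusted limma p of 0.00843), while the proton pump genes ATP4A and ATP4B were at 0.22 (0.0351) and 0.25 (0.0487). The 4 smooth muscle markers were all lower in CA, with a mean per piglet of 10.09 to 11.04 in CA and 9.72 to 11.28 in SA. DES, MYH11 and ACTG2 were not analysed here. The 8 fibroblast markers, 3 of them higher and 5 lower, had a mean per piglet of 10.06 to 10.53 in CA and 10.18 to 10.47 in SA, and the 5 leukocyte markers one of 7.10 to 7.46 in CA and 7.29 to 7.46 in SA. The part of these lists in the differences of FST, SMAD7 and INHBA was not tested. According to the labels each treatment had a room of its own, in which case room and treatment cannot be told apart, while the study's methods describe mixed rooms.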

How the data were processed

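The arrays were Affymetrix gene arrays of the pig, which the authors summarized by Robust Multichip Analysis with the Affymetrix Expression Console, of unstated version. The deposited intensities are on a linear scale and already normalized, and they were converted to log2. Of 27558 features, 11982 had 1 gene symbol in the platform annotation, 373 had several and 15203 stayed unnamed here. All 10922 features with a gene identifier in RefSeq (Sscrofa11.1) carried its symbol. The brightest feature of each gene was used, and SMAD5 rests on a feature listed under a pair of identifiers of that symbol. The 10912 genes were compared with lmFit and eBayes of limma (3.58.1, R 4.3.3) and Benjamini-Hochberg adjustment, without covariate, since litter, sex, pen and strip are not labelled per piglet. The procedure was tested on simulated data. Single genes were also compared by an exact permutation test, whose smallest possible p is 0.00216, and 7 of 8 listed pairs by correlation with 100000 permutations (the other is not reported here). Genes with values per piglet were those at an unadjusted p under 0.05, SMAD7 and INHBA, the 2 largest differences per role above the median feature, and the 3 largest SDs. Members, lists and rules were chosen with earlier results of these data known. Array number limits the precision; the number of unused sample columns was 0.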

Additional observations from a re-analysis of the deposited data

Results flagged for a closer look

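Among the 15 genes with values per piglet, a single piglet stood far from its group in 2 of 30 groups of 6, by the gap to its nearest neighbor over the range of the group, and chance alone flags about 5% of groups. TGFB3 in SA piglet 11 was at a log2 intensity of 7.00, with the nearest SA piglet at 6.56 (gap over range 0.728). SMAD9 in SA piglet 9 was at 7.06, with the nearest SA piglet at 6.31 (gap over range 0.683). The other genes were not screened by this rule. CA piglet 4 stood well below the other CA piglets in some of them, such as BMPR1A (9.40, where the others lay at 9.935 or more).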

How the results depend on the processing

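In every alternative run, 0 genes had an adjusted p under 0.05 from limma or the exact permutation test. Genes at an unadjusted p under 0.05 were 358 as analysed, 193 without dim features, 700 with array weights, and 243 to 672 with 1 piglet left out (672 without SA piglet 9). The count among the 49 genes was 4 as analysed, 2 with median centring, 3 by exact permutation, and 2 to 6 with 1 piglet left out; it was 2 (FST and SMAD7) without CA piglet 2, CA piglet 4, SA piglet 7, SA piglet 8 or SA piglet 10, and 6 without CA piglet 3. FST and SMAD7 were among these genes under each alternative, whereas BMPER was lost with array weights, with median centring and by exact permutation and in 8 of the 12 cases with 1 piglet left out, and INHBA in 10 of these cases and with quantile normalization, median centring and moderation with trend; without dim features INHBA was left out. Single fold changes with 1 piglet left out were examined only for the 15 genes with values per piglet. Values that changed sign then ranged from -0.136 to 0.0229 for TGFB1, -0.0753 to 0.0642 for TGFB3 and -0.0063 to 0.172 for BMP7. Correlations that changed sign ranged from -0.133 to 0.322 for BMP4 and GREM1 and from -0.245 to 0.566 for TGFB1 and TGFBI. That of SMAD7 and BAMBI ranged from 0.605 to 0.821. Its adjusted permutation p was above 0.05, and so not called, in 9 of these 12 cases and with quantile normalization (r = 0.671, permutation p adjusted to 0.0572). The cause of these changes was not tested. The study's methods state that litter, weight and sex were balanced over the groups. No analysis paired by litter was possible, because the litter of each piglet is not labelled.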
